A study of Mus musculus with 22 samples.

Results

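The 10 genes described here are Id1, Id2, Id3, Smad6, Smad7, Eng, Tgfb1, Tgfbr1, Tgfbr2 and Skil, out of 47311 genes whose transcripts were counted in bone marrow cells of mice with and without ARID1A, a subunit of the BAF chromatin remodelling complex. They were chosen as a named set of inhibitor of DNA binding (ID) genes and of genes of the TGF-beta and BMP signalling pathway, and they were selected on values of these same libraries, since Id1 had been noted as higher and Eng as lower in granulocyte-macrophage progenitors (GMPs) without ARID1A. The GMP comparison of knockout (KO) with wild type (WT) is therefore given for the members as a description, with no test. Both groups carried floxed Arid1a alleles on a C57BL/6 background and both received poly(I:C), which induces the Mx1-Cre transgene through interferon; KO mice were Arid1a f/f;Mx1-Cre+ and WT mice were littermates of the same sex without the transgene (Arid1a f/f;Mx1-Cre-). Mice were 8 to 14 weeks old when injected and cells were sorted 4 weeks later. Mx1-Cre acts in many interferon-responsive tissues, so deletion may not have been limited to blood cells, which was not tested here.

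Long-term hematopoietic stem cells (LT-HSCs, sorted as CD34-Flt3- Lin-Sca1+Kit+ cells) gave 2 WT and 2 KO libraries. Common myeloid progenitors (CMPs), GMPs and megakaryocyte-erythroid progenitors (MEPs) were taken as sorted from every one of 3 WT and 3 KO mice, reading the number in each library title as a mouse. Total counts on genes lay between 40803835 and 65930565 per library.

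TGF-beta and BMP ligands are secreted proteins that bring together type I and type II receptor kinases, which phosphorylate receptor-regulated SMAD proteins. These pair with SMAD4, enter the nucleus and act on target genes. ID proteins are helix-loop-helix proteins without a DNA-binding region. They hold E proteins away from DNA, and their genes are classic targets of BMP signalling. TGF-beta is known for restraining the division of stem cells in the bone marrow, and E proteins for guiding lineage choice there.

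Within each population KO and WT were compared with edgeR's quasi-likelihood test, and a gene was called at a Benjamini-Hochberg adjusted p (FDR) under 0.1 over all genes tested. In CMPs 9 of the 10 members passed the filter on low counts, and of these 3 rose (Id1, Smad7 and Tgfb1) and 2 fell (Smad6 and Skil) in KO cells, where 23.4% of all genes tested were called; limma on log2 TPM called 4 higher and 1 lower. In MEPs 7 members passed the filter, Tgfb1 rose and Smad7 fell, against 29.4% of all genes. In LT-HSCs all 10 members passed the filter and edgeR called 0 of them, against 0.0792% of all genes; 1 member (Tgfb1) had an unadjusted p under 0.05, and DESeq2 and limma also called 0. In GMPs 9 members passed the filter and 33.9% of all genes were called. Over all genes the median SE of the log2 difference was 0.765 in LT-HSCs and between 0.117 and 0.12 in the 3 precursor populations, so only much larger changes could be called in LT-HSCs. The CPM of KO and WT libraries did not overlap for 36.3% of all genes tested in LT-HSCs and 33.5% in CMPs. This share was 42.5% in GMPs and 38.2% in MEPs, so a lack of overlap is common.

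**Figure D1:**
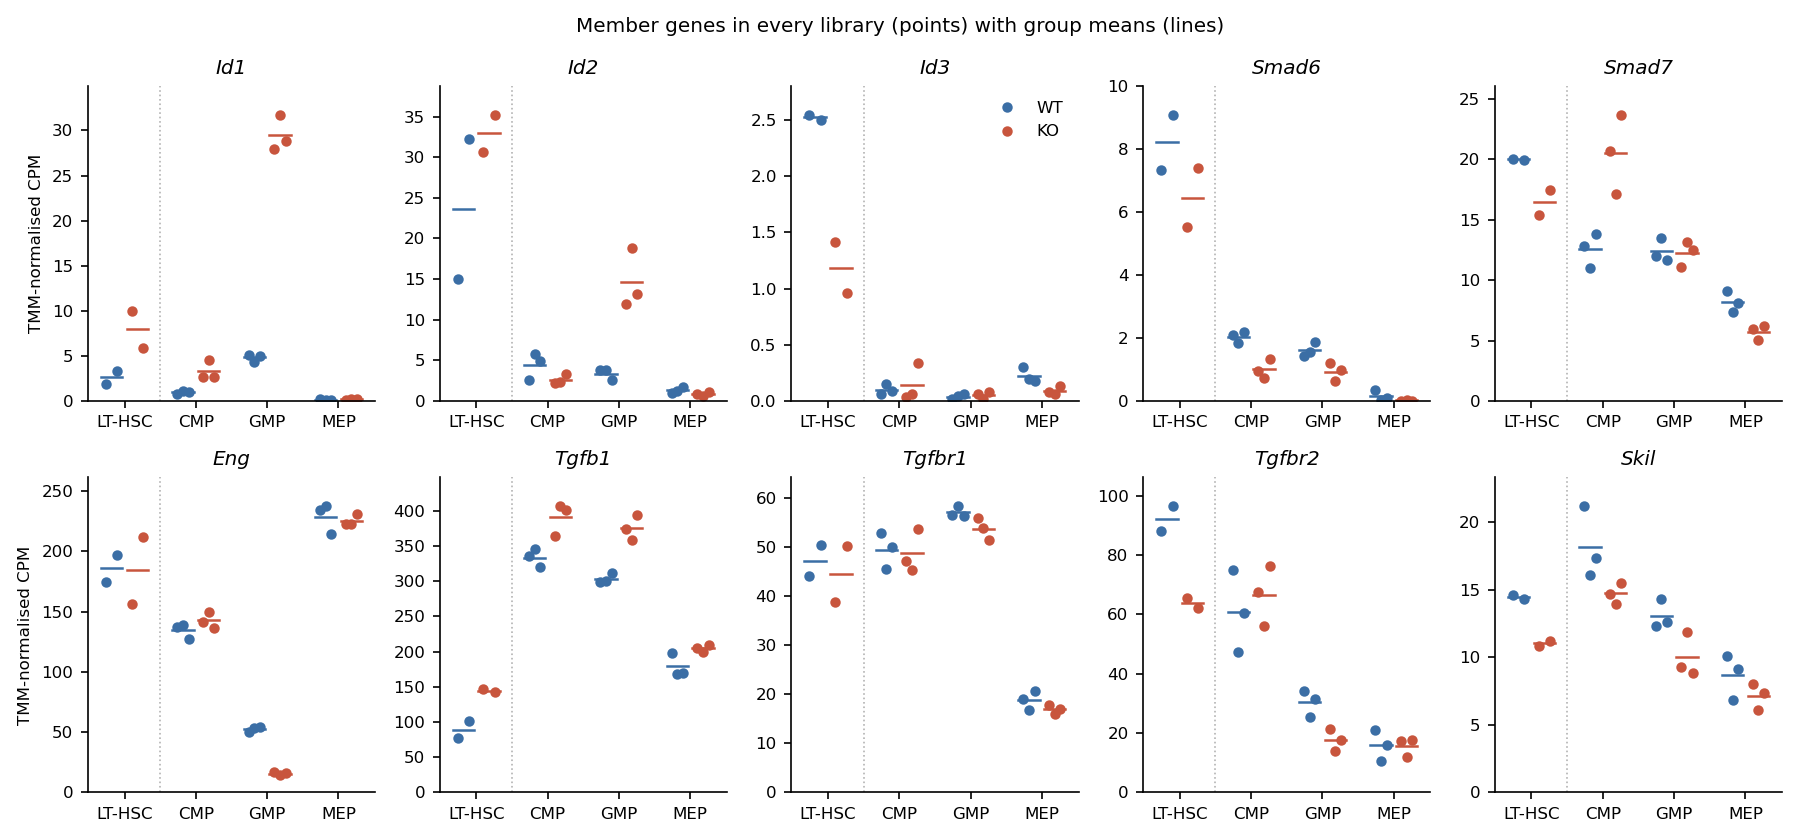
TMM-normalised CPM (counts scaled to a common library size, linear axes from 0) of the 10 members in the 22 libraries, with WT in blue and KO in red; each point is a library and each line the mean of a group. Values of LT-HSCs, left of the dotted line, come from another library kit and were scaled apart. Id1 stood between 27.9 and 31.8 CPM in KO GMPs and between 4.37 and 5.11 in WT GMPs, whereas Eng stood between 14.2 and 16.7 in KO GMPs and between 50.1 and 54.0 in WT GMPs.

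The labels were checked against marker genes. Cd34 lay at 423 to 455 TPM (the kallisto level scaled for transcript length) in WT CMPs and at 0.742 to 10.9 in WT MEPs, and Fcgr3 at 259 to 284 TPM in WT GMPs and at 8.62 to 13.8 in WT CMPs. Klf1 lay at 313 to 382 TPM in WT MEPs and at 58 to 76.1 in WT CMPs. In WT LT-HSCs it lay at 153 to 359 TPM, so it does not set MEPs apart from LT-HSCs. Procr, a stem cell marker, lay at 119 to 162 TPM in WT LT-HSCs and at most at 5.88 TPM in any WT precursor library. LT-HSCs, though sorted as CD34- cells, held Cd34 RNA at 84.8 to 166 TPM in WT and 51.3 to 73.8 TPM in KO. The summed level of 9 erythroid genes was nevertheless 4800 to 5990 TPM in the 4 LT-HSC libraries, next to 6250 to 7220 in WT MEPs. Of these genes Car1 and Car2 were the highest in WT LT-HSCs, with means of 1560 and 2540 TPM. The LT-HSC libraries also differed from one another. WT replicate 2 held 2780 TPM of 9 neutrophil genes, against 411 to 457 in the other 3, and KO replicate 2 held 3450 TPM of 8 basophil, mast cell and eosinophil genes, against 251 to 453. WT replicate 1 had 27191 genes with 10 or more counts, against 18504 to 22407 in the other 3. Arid1a itself fell in KO CMPs by 0.22 ± 0.06 on the log2 scale (SE, edgeR adjusted p = 0.0284), in KO GMPs by 0.40 ± 0.11 (adjusted p = 0.0246) and in KO MEPs by 0.14 ± 0.05 (adjusted p = 0.0836); in LT-HSCs the value was -1.14 ± 0.27 (adjusted p = 0.421). The deletion removes exon 9 alone, and most counted fragments lie outside it, so these values do not check the labels.

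Id1 (ENSMUSG00000042745, chromosome 2, 152736251 to 152737410, plus strand, GRCm38) showed the widest differences of the ID genes. In WT CMPs it stood at 0.770, 1.14 and 0.979 CPM in mice 300, 305 and 309, and in KO CMPs at 2.70, 4.53 and 2.64 CPM in mice 301, 304 and 308. Every KO CMP library was above every WT CMP library. The fold change was 3.41, a log2 value of 1.77 ± 0.28 (SE, edgeR adjusted p = 0.00289). In GMPs the values were 5.11, 4.37 and 4.999 CPM in WT and 27.9, 31.8 and 28.8 CPM in KO, so that the groups stood far apart. This 6.06-fold difference (log2 2.60 ± 0.10) is the one that chose the gene and was not tested. In MEPs Id1 was nearly silent in both genotypes, with 4 to 12 counts per library, and did not pass the filter. The 2 KO LT-HSC libraries held 9.99 and 5.89 CPM and the 2 WT libraries 1.86 and 3.36 CPM, a log2 difference of 1.61 ± 0.74 (edgeR adjusted p = 0.876), which was 1.27 without WT replicate 1, 2.07 without WT replicate 2 and 1.19 without KO replicate 1.

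Among WT precursors Id1 was highest in GMPs. It stood 2.33 ± 0.19 higher on the log2 scale in WT GMPs than in WT CMPs, a 5.02-fold difference (edgeR adjusted p = 3.61e-07). The WT GMP libraries also belong to the comparison that chose Id1, so this p-value is not independent of that choice. From WT GMPs to WT MEPs Id1 was 5.07 ± 0.27 lower. Id1 entered that fit through the populations where it is higher, so its fall to MEPs is not given as a test. The order GMP, CMP, MEP was the same in KO cells, with means of 29.5, 3.29 and 0.164 CPM. The transcript Id1-201 carried 97.2% of the gene's TPM in KO GMPs and 97.4% in WT GMPs, so both genotypes used the same transcript.

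Id2 (ENSMUSG00000020644, chromosome 12, 25093799 to 25097140, minus strand), the ID gene known for its role in innate lymphoid and dendritic cells, stood apart between the genotypes in GMPs. In WT GMPs it stood at 3.79, 3.82 and 2.52 CPM and in KO GMPs at 11.9, 18.8 and 13.2 CPM, with no overlap and a log2 difference of 2.10 ± 0.22. In CMPs the values were 2.51, 5.72 and 4.96 CPM in WT and 2.19, 2.29 and 3.31 CPM in KO. The groups overlapped, and the log2 value of -0.77 ± 0.31 did not pass the test (edgeR adjusted p = 0.133). The lowest WT library was that of mouse 300, without which the value was -1.06 (adjusted p = 0.0178). It was also called by DESeq2 (adjusted p = 0.0565), without a filter on low counts (adjusted p = 0.0803) and with a replicate block that matched each KO mouse with 1 WT mouse (log2 -0.72, adjusted p = 0.0492), a matching that the labels do not give. In MEPs Id2 lay between 0.583 and 1.76 CPM over the 6 libraries, with a log2 value of -0.62 ± 0.33 (adjusted p = 0.229). LT-HSCs held more Id2 than any other population by TPM, with 29.2 ± 11.1 TPM in WT (SD, n = 2) and 35.9 ± 0.80 in KO (SD, n = 2), but the kit differed and the difference from the precursors cannot be told apart from it.

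Id3 (ENSMUSG00000007872, chromosome 4, 136143497 to 136145755, plus strand) was close to absent in precursors, with 1 to 19 counts per library, and was not tested there. It was measurable in LT-HSCs alone, at 2.55 and 2.50 CPM in WT and 1.41 and 0.964 CPM in KO. The log2 value of -1.09 ± 1.06 did not pass the test (edgeR adjusted p = 0.876). In LT-HSCs Id1 thus stood higher and Id3 lower in both KO libraries than in both WT libraries, and neither difference passed the adjusted threshold. Such a separation, in either direction, was found for 36.3% of all genes tested there.

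**Figure D2:**
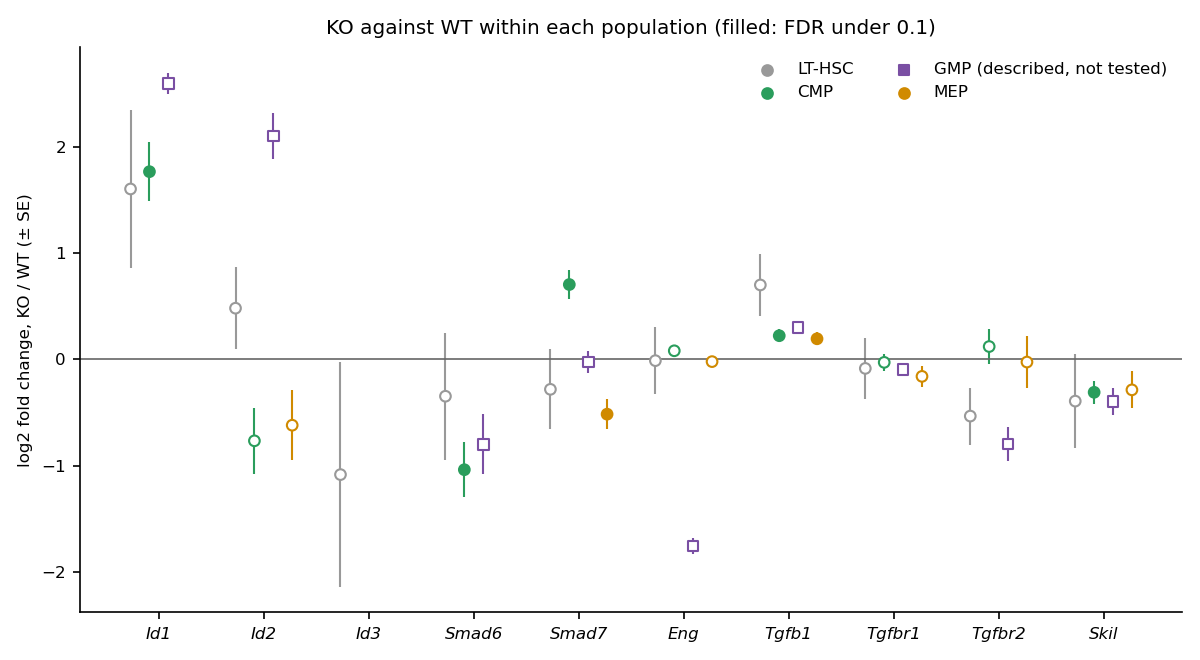
Log2 fold change of KO over WT (± SE) for each member that passed the filter in LT-HSCs (grey), CMPs (green), GMPs (purple squares) and MEPs (orange). Filled points were called at an FDR under 0.1; GMP points are open because the members were chosen on that comparison. Id1 lay at 1.77 in CMPs and 2.60 in GMPs, while Eng lay at -1.76 in GMPs and within 0.1 of 0 elsewhere.

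Eng (ENSMUSG00000026814, chromosome 2, 32646595 to 32682669, plus strand) encodes endoglin, a co-receptor that binds TGF-beta and BMP ligands beside the receptor kinases and is best known from endothelial cells. In GMPs it stood at 50.1, 53.6 and 54.0 CPM in WT and at 16.7, 14.2 and 16.1 CPM in KO, which is 0.296 of the WT level (log2 -1.76 ± 0.08). The 3 KO libraries lay close to each other and far below the lowest WT library. In CMPs it stood at 137, 139 and 127 CPM in WT and at 142, 150 and 137 CPM in KO. In MEPs the values were 234, 238 and 214 CPM in WT and 223, 223 and 231 CPM in KO. The groups overlapped in both populations, and the log2 values of 0.08 ± 0.06 in CMPs (edgeR adjusted p = 0.435) and -0.02 ± 0.05 in MEPs (adjusted p = 0.807) did not pass the test. On log2 TPM, limma called Eng higher in KO CMPs (log2 0.21, adjusted p = 0.051). The KO effect in MEPs less that in CMPs was not called either (-0.11 ± 0.09, edgeR adjusted p = 0.58).

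The 3 precursor populations differed in Eng among WT mice. Relative to WT CMPs it fell by 1.35 ± 0.07 on the log2 scale in WT GMPs (edgeR adjusted p = 2.69e-09) and rose by 0.77 ± 0.06 in WT MEPs (adjusted p = 1.35e-07). The WT GMP libraries also belong to the comparison that chose Eng, so the first p-value is not independent of that choice. In TPM, WT MEPs held 106.7 ± 5.57, WT LT-HSCs 102.8 ± 7.91, WT CMPs 73.0 ± 2.84 and WT GMPs 25.4 ± 1.23 (SD, n = 3, and n = 2 for LT-HSCs). The gene overlaps Fpgs on the opposite strand, with which it shares 31 of its 4130 different 31-base words (0.751%), the unit by which kallisto assigns reads. All other members shared at most 2.34% of theirs with other genes, and Id1, Id3, Smad6, Smad7 and Skil shared 0.

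The sequence before the start of Eng is shown because this gene had the widest fall among the members, beside those of Tgfbr2, which was also lower in KO GMPs, and of Smad6, which fell in KO CMPs. The windows hold the 250 bases before the RefSeq start on the gene's own strand (GRCm38.p6). Capitals mark 2 motifs searched on both strands, the E-box CANNTG, which E proteins bind, and the SMAD-binding letters CAGAC, which read GTCTG on the opposite strand; the sets of letters did not overlap here.
Eng, chr2:32646345-32646594 (+): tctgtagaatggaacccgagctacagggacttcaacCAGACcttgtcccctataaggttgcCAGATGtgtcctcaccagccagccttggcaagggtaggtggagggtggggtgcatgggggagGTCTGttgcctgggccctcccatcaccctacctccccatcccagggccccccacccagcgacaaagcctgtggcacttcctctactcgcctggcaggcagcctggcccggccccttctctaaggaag
Tgfbr2, chr9:116175364-116175613 (-): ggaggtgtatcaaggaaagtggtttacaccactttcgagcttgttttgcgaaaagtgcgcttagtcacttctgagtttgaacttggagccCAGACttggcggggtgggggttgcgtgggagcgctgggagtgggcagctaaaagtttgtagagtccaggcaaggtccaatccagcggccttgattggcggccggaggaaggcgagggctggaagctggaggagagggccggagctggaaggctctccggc
Smad6, chr9:64022060-64022309 (-): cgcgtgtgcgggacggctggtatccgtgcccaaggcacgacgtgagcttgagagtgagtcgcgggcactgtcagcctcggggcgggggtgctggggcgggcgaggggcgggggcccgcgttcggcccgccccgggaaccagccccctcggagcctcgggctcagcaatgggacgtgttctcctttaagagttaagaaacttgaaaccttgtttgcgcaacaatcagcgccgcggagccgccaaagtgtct
The Eng window held 1 E-box starting at position -189 and 2 CAGAC matches at -214 and -127, counted back from the start. The Tgfbr2 window held 1 CAGAC match at -160 and the Smad6 window held neither motif. Of all 32851 promoter windows of this length, 66.2% held an E-box and 42.2% held CAGAC, so that each match is common. The Eng window also had only 4 CG pairs, against 12 for Tgfbr2 and 27 for Smad6. Id1, Smad7 and Skil had no entry in the promoter table.

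Tgfbr2 (ENSMUSG00000032440, chromosome 9, 116084293 to 116175360, minus strand) encodes the type II receptor that binds TGF-beta first, and Tgfbr1 (ENSMUSG00000007613, chromosome 4, 47353222 to 47414931, plus strand) the type I kinase that it activates. In GMPs Tgfbr2 stood at 34.2, 25.6 and 31.5 CPM in WT and at 21.3, 14.01 and 17.6 CPM in KO, a log2 difference of -0.80 ± 0.16 with no overlap. In CMPs it lay between 47.3 and 75.0 CPM in WT and between 56.0 and 76.2 CPM in KO, and in MEPs between 10.7 and 21.0 CPM in WT and between 11.8 and 17.8 CPM in KO. Both pairs of groups overlapped (adjusted p = 0.7 and 0.959, edgeR). In LT-HSCs the 2 KO libraries (65.4 and 62.1 CPM) were below the 2 WT libraries (88.1 and 96.5 CPM), without passing the test (log2 -0.53 ± 0.27, adjusted p = 0.876). Tgfbr1 had log2 values between -0.16 and -0.03 in the 4 populations and did not pass the test in CMPs, MEPs or LT-HSCs. In LT-HSCs the value was -0.52 on log2 TPM (limma adjusted p = 0.809), with 18.6 and 25.4 TPM in WT and 14.04 and 16.1 TPM in KO, and in MEPs it was called without WT mouse 305 (log2 -0.24, edgeR adjusted p = 0.0937).

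Both receptor genes also differed between WT populations. Tgfbr2 fell by 0.99 ± 0.10 on the log2 scale from WT CMPs to WT GMPs (edgeR adjusted p = 1.83e-06) and by 1.95 ± 0.10 to WT MEPs (adjusted p = 9.89e-10). Tgfbr1 rose by 0.21 ± 0.08 in WT GMPs (adjusted p = 0.0394), which did not pass with an offset for transcript length (adjusted p = 0.129), and fell by 1.39 ± 0.08 in WT MEPs (adjusted p = 2.52e-09). WT MEPs held 4.59 ± 0.66 TPM of Tgfbr1 and 4.21 ± 1.34 TPM of Tgfbr2 (SD, n = 3), while the co-receptor Eng in the same libraries was above 100 TPM.

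Tgfb1 (ENSMUSG00000002603, chromosome 7, 25687002 to 25705077, plus strand), the gene of the TGF-beta1 ligand, was the most abundant member in all 3 precursor populations, at 264 ± 11.7 TPM in WT CMPs, 217 ± 1.2 in WT GMPs and 117 ± 10.3 in WT MEPs (SD, n = 3). In CMPs it stood at 336, 345 and 320 CPM in WT and at 364, 407 and 401 CPM in KO. In MEPs the values were 198, 169 and 170 CPM in WT and 205, 200 and 209 CPM in KO. All KO libraries were above all WT libraries in both populations, though the rise was small, at 1.17-fold in CMPs (log2 0.22 ± 0.06, edgeR adjusted p = 0.031) and 1.14-fold in MEPs (log2 0.19 ± 0.06, adjusted p = 0.0631). The call in CMPs was lost without KO mouse 304 (adjusted p = 0.11) or WT mouse 309 (adjusted p = 0.137), and that in MEPs without any 1 of mice 301, 304, 305, 308 and 309 (adjusted p = 0.117 to 0.171). In GMPs the values were 299, 300.4 and 311 CPM in WT and 375, 359 and 394 CPM in KO, a log2 difference of 0.30 ± 0.06. The 2 KO LT-HSC libraries (147 and 143 CPM) stood above the 2 WT libraries (76.7 and 101 CPM), with a log2 value of 0.70 ± 0.29 that did not pass the test (adjusted p = 0.876) and was 0.36 with an offset for transcript length. On log2 TPM it was 0.14 (limma adjusted p = 0.838). Without WT replicate 2, the library with the high neutrophil genes, the values were 0.88 for Tgfb1 (edgeR adjusted p = 0.016) and 1.1 for Id2 (adjusted p = 0.0626), but 1 WT library is then left, its spread is assumed to be that of the 2 KO libraries, and these p-values are no support for a difference.

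Smad7 (ENSMUSG00000025880, on chromosome 18) and Smad6 (ENSMUSG00000036867, chromosome 9, 63953076 to 64022059, minus strand) encode the inhibitory SMADs, which block the receptors and are themselves induced by the pathway, Smad6 mainly by BMP signals. Smad7 moved in opposite directions in the CMP and MEP populations. In CMPs it stood at 12.8, 11.03 and 13.8 CPM in WT and at 20.7, 17.2 and 23.7 CPM in KO, a 1.63-fold rise (log2 0.71 ± 0.13, edgeR adjusted p = 0.00714). In MEPs it stood at 9.14, 7.33 and 8.12 CPM in WT and at 5.97, 5.03 and 6.22 CPM in KO, that is 0.699 of the WT level (log2 -0.52 ± 0.14, adjusted p = 0.0329). The groups did not overlap in either population.

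The difference between the effects was itself tested in 1 fit of all 18 precursor libraries, blocked by mouse. For Smad7 the KO effect in MEPs less that in CMPs was -1.22 ± 0.18 on the log2 scale (edgeR adjusted p = 6.74e-04), where 13.1% of all genes were called for this difference, and for Id1 it was -1.55 ± 0.50 (adjusted p = 0.0734). Id1 did not pass the filter within MEPs, where it had 4 to 12 counts per library, and entered this fit through CMPs and GMPs, where it is higher, so its value is not given as support. No other member of the 9 tested was called, and Id1 lost its call when WT mouse 300 or 309 or KO mouse 301 or 308 was left out (adjusted p = 0.103 to 0.408). The fall of Smad7 in MEPs did not pass the test without WT mouse 300 (adjusted p = 0.11), without KO mouse 304 (adjusted p = 0.111), with an offset for transcript length (adjusted p = 0.125) or with limma on log2 TPM (log2 -0.46, adjusted p = 0.185), while the direction held in each case. In GMPs Smad7 lay between 11.6 and 13.5 CPM in WT and between 11.1 and 13.1 CPM in KO, a log2 difference of -0.03 ± 0.11.

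Smad6 stood lower than Smad7 in TPM in every group. In CMPs it lay at 2.11, 1.84 and 2.19 CPM in WT and at 0.938, 0.723 and 1.34 CPM in KO, so that KO cells held 0.487 of the WT level (log2 -1.04 ± 0.26, edgeR adjusted p = 0.0238) with no overlap. In GMPs the values were 1.42, 1.54 and 1.88 CPM in WT and 1.204, 0.626 and 0.970 CPM in KO (log2 -0.80 ± 0.28). On log2 TPM this value was -0.29, and the GMP values of other members moved as well, to 2.38 for Id1, 0.14 for Tgfb1, -0.16 for Smad7 and -0.24 for Tgfbr1. In MEPs it was barely detected, with 18, 1 and 4 counts in WT and 0, 2 and 0 counts in KO, where a count of 0 allows up to 3 counts in a library, and was not tested. In LT-HSCs it lay at 7.34 and 9.10 CPM in WT and at 5.52 and 7.40 CPM in KO, which overlapped.

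Skil (ENSMUSG00000027660, chromosome 3, 31095058 to 31122577, plus strand) encodes SnoN, a corepressor of SMAD complexes whose gene is also a target of the pathway. In CMPs it stood at 21.2, 16.1 and 17.3 CPM in WT and at 14.7, 13.98 and 15.5 CPM in KO (log2 -0.31 ± 0.11, edgeR adjusted p = 0.0951). That call stood just under the threshold and did not hold with median-of-ratios size factors (adjusted p = 0.107), without a filter on low counts (adjusted p = 0.117), with an offset for transcript length (adjusted p = 0.395), on log2 TPM (adjusted p = 0.746) or without mouse 300, 301, 304, 308 or 309 (adjusted p = 0.133 to 0.28). The log2 value was -0.40 ± 0.13 in GMPs, -0.29 ± 0.17 in MEPs (adjusted p = 0.294, and 0.0607 without WT mouse 305) and -0.39 ± 0.45 in LT-HSCs (adjusted p = 0.88), so that it was below 0 in all 4 populations.

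**Figure D3:**
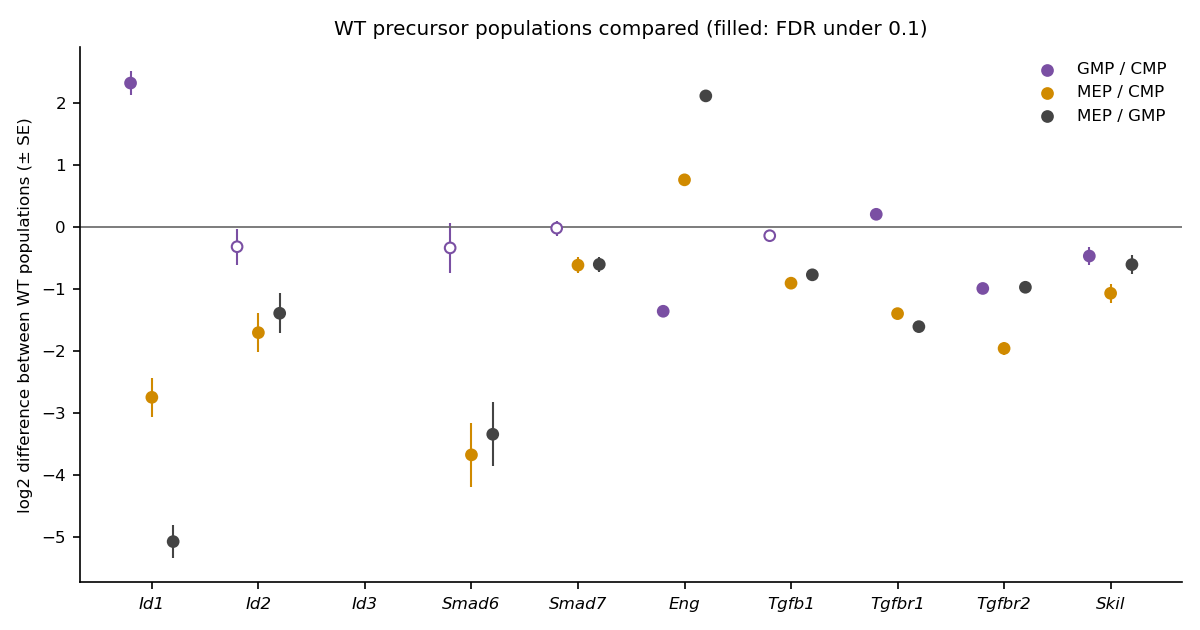
Log2 difference (± SE) between WT precursor populations for each member that passed the filter, with filled points called at an FDR under 0.1. Of the members shown, Eng alone was higher in MEPs than in CMPs (0.77) and GMPs (2.12), and Id1 showed the widest span, from 2.33 for GMP over CMP to -5.07 for MEP over GMP. Id1 and Smad6 did not pass the filter within MEPs, so their filled points against MEPs are not given as support.

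From WT CMPs to WT GMPs 2 members rose (Id1 and Tgfbr1) and 3 fell (Eng, Tgfbr2 and Skil) of the 9 tested, against 45.2% of all genes called. Of these calls, that of Skil was lost without mouse 300 (log2 -0.31, adjusted p = 0.217) or 309 (adjusted p = 0.109) and that of Tgfbr1 without mouse 305 (adjusted p = 0.103). From WT CMPs to WT MEPs 8 members fell and Eng alone rose, against 70.6% of all genes, and the same split was found from WT GMPs to WT MEPs, against 70.7%, where Smad7 was not called with an offset for transcript length (log2 -0.30, adjusted p = 0.185). These comparisons share libraries, and those with GMPs use the WT GMP libraries of the comparison that chose the members. From WT CMPs to WT MEPs Id2 fell by 1.70 ± 0.32 on the log2 scale (edgeR adjusted p = 3.13e-04). The inhibitory Smad6 stood 3.67 ± 0.51 lower, between -4.99 and -3.25 with 1 mouse left out, and Id1 2.74 ± 0.31 lower. Smad6 and Id1 had 1 to 18 and 4 to 10 counts in WT MEPs and did not pass the filter within MEPs. They entered the fit through CMPs and GMPs, where they are higher. They count among the 8 members that fell, but their calls against MEPs are not given as support. Between WT CMPs and WT GMPs, Smad7 (-0.01 ± 0.12, edgeR adjusted p = 0.953), Smad6 (-0.33 ± 0.40, adjusted p = 0.561) and Id2 (-0.31 ± 0.29, adjusted p = 0.443) did not pass the test. Without mouse 300 Id2 was called (log2 -0.76, adjusted p = 0.0726).

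**Figure D4:**
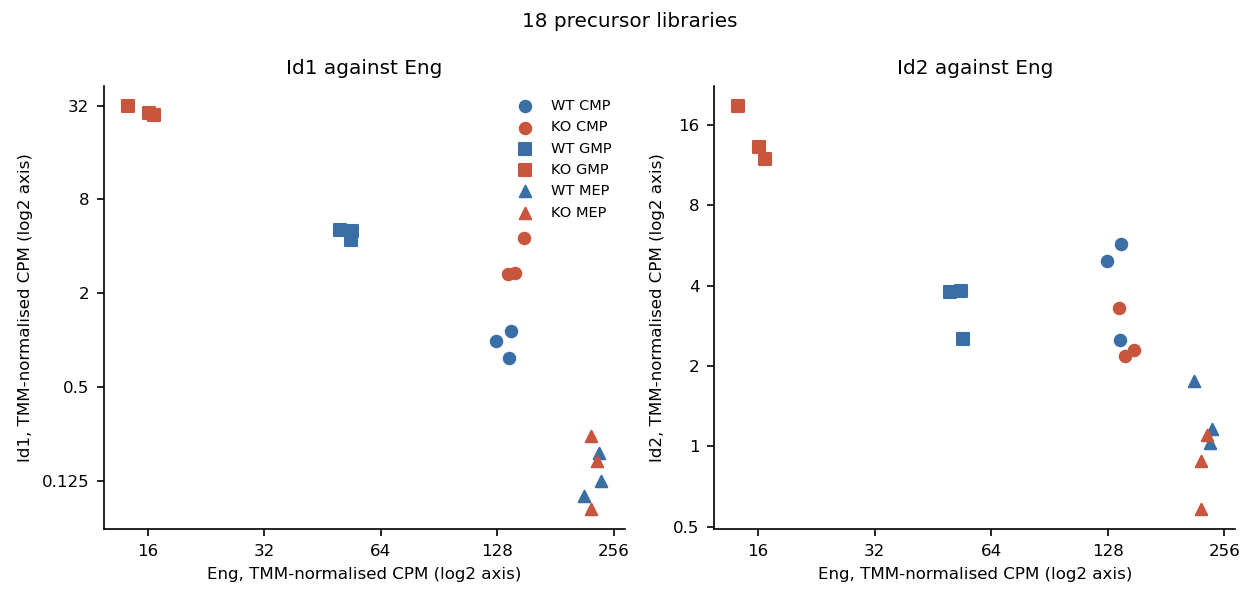
Id1 (left) and Id2 (right) against Eng in the 18 precursor libraries, in TMM-normalised CPM on log2 axes; circles are CMPs, squares GMPs and triangles MEPs, with WT in blue and KO in red. KO GMPs lie at the upper left, with the highest Id1 and Id2 and the lowest Eng, and MEPs at the lower right.

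Over the 18 precursor libraries the levels of Id1 and Eng ran in opposite directions, with a Pearson r of log2 CPM of -0.916 and a Spearman rho of -0.88, as did those of Id2 and Eng (r = -0.882, rho = -0.897). Id1 and Id2 ran together (r = 0.867, rho = 0.8). These libraries share mice, fall into 3 populations and include the GMP libraries in which Id1 was noted as higher and Eng as lower, so that part of the opposite run is fixed by the choice of the members; the values are a description and were not tested. Between KO and WT CMPs Id1 differed 3.41-fold and Eng 1.06-fold. Of 13187 genes above a mean of 1 TPM, the 3 most like Id1 were Adgre1, which encodes the macrophage marker F4/80 (r = 0.987), Trim46 (r = 0.983) and Oosp1 (r = 0.982). Those most like Eng were Serpinb6b (r = 0.991), Art4 (r = 0.991) and Tmem64 (r = 0.989), and those most like Id2 were Cnnm3 (r = 0.969), Ccdc12 (r = 0.958) and Maml1 (r = 0.946).

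Of 94 other genes of the pathway in 7 lists, 93 were matched and 64 passed the filter in CMPs, 61 in GMPs, 57 in MEPs and 76 in LT-HSCs. In CMPs 8 rose and 15 fell (35.9% called, against 23.4% of all genes), in GMPs 12 rose and 21 fell (54.1%, against 33.9%), in MEPs 12 rose and 9 fell (36.8%, against 29.4%), and in LT-HSCs edgeR called 1 (1.32%, against 0.0792%), which fell. The split depended on the scale. On log2 TPM, 13 rose and 8 fell in CMPs, and 5 rose and 20 fell in GMPs; TPM shifted the median of all genes by 0.099 in CMPs and by -0.123 in GMPs (log2 KO over WT), so that changes of this size are not told apart from the scaling. The median log2 change of the tested list genes was -0.04 in CMPs, -0.12 in GMPs and 0.00 in MEPs, where that of all genes was -0.003, -0.006 and -0.002.

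**Figure D5:**
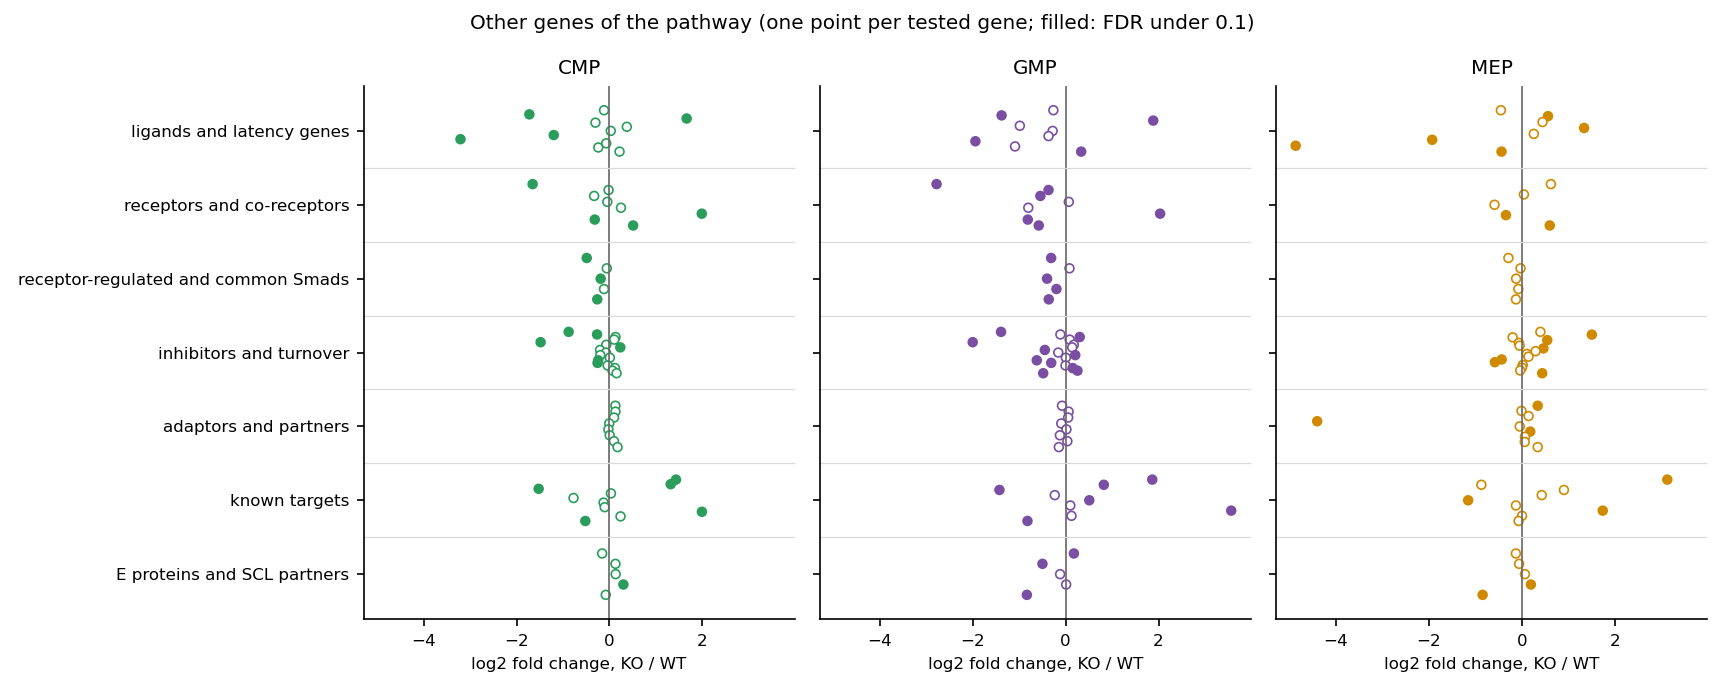
Log2 fold change of KO over WT for each tested gene of the 7 pathway lists in CMPs, GMPs and MEPs, 1 point per gene, filled where the FDR was under 0.1. Among the known targets the rightmost filled point in GMPs is Tgfbi (3.57) and in MEPs Cdkn1a (3.13).

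Among ligands and the proteins that keep TGF-beta latent outside the cell, Ltbp4 and Ltbp3, both latent TGF-beta binding proteins, fell in KO cells. Ltbp3 went from 41.2 to 55.1 CPM in WT CMPs to 18.4 to 23.3 in KO CMPs (log2 -1.20 ± 0.13, edgeR adjusted p = 4.20e-04), and fell by 1.94 ± 0.14 in GMPs and by 1.93 ± 0.33 in MEPs. Ltbp4 fell to 0.108 of its WT level in CMPs (log2 -3.21 ± 0.33, edgeR adjusted p = 3.55e-04) and was not called in GMPs (log2 -1.09, adjusted p = 0.189). It was also the 1 gene called in LT-HSCs, from 13.0 to 13.3 CPM in WT to 0.308 to 0.620 in KO (log2 -4.81 ± 0.76, adjusted p = 0.0667). Ltbp1 rose 2.53-fold in MEPs. Gdf3, a ligand of the same family, rose 3.17-fold in CMPs and 3.70-fold in GMPs, and Nrros, which anchors latent TGF-beta on myeloid cells, rose 1.26-fold in GMPs, a call lost on log2 TPM (adjusted p = 0.163).

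Of 8 receptor and co-receptor genes tested in CMPs, 2 rose and 2 fell (50% called, against 23.4% of all genes). Of 8 in GMPs, 1 rose and 5 fell (75%, against 33.9%). In MEPs 1 of 5 rose and 1 fell (40%, against 29.4%). Acvr1, a BMP type I receptor, fell to 0.318 of its WT level in CMPs (log2 -1.65 ± 0.21, edgeR adjusted p = 9.59e-04) and to 0.146 in GMPs (log2 -2.78 ± 0.32, adjusted p = 2.61e-04). Another BMP type I receptor, Bmpr1a, is named for its direction. It rose in CMPs (log2 1.99, edgeR adjusted p = 0.0575) and GMPs (2.03, adjusted p = 0.0455), and the CMP call was lost on log2 TPM (limma adjusted p = 0.388). Bmpr2, the BMP type II receptor, fell in CMPs (log2 -0.32 ± 0.08), GMPs (-0.81 ± 0.12) and MEPs (-0.34 ± 0.11), the first and last of which were not called on log2 TPM. In GMPs the activin receptor Acvr1b fell as well (log2 -0.37 ± 0.07). Tgfbr3, which encodes the co-receptor betaglycan, rose 1.42-fold in CMPs and 1.52-fold in MEPs, and fell to 0.669 of its WT level in GMPs; this last value was picked after it had been seen, for its direction.

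Among the 5 tested SMADs that carry the signal, 3 fell in CMPs (60% called, against 23.4% of all genes) and 4 in GMPs (80%, against 33.9%). Their median log2 change was -0.19 in CMPs and -0.31 in GMPs. In CMPs Smad1 (log2 -0.49 ± 0.08), Smad5 (-0.26 ± 0.07) and Smad3 (-0.19 ± 0.06) fell, and in GMPs Smad5 (-0.36 ± 0.06), Smad3 (-0.40 ± 0.07), Smad1 (-0.31 ± 0.07) and the common partner Smad4 (-0.20 ± 0.06). All 4 GMP calls held on log2 TPM, whereas in CMPs only that of Smad1 did. TPM shifted the median of all genes by -0.123 in GMPs and by 0.099 in CMPs, so for the smaller falls this contrast is not told apart from the scaling. None of the 5 tested in MEPs was called by edgeR or by limma on log2 TPM, and none had an unadjusted p under 0.05 in edgeR. Of the 17 inhibitors and turnover genes tested in CMPs and in GMPs, 5 fell and 1 rose in CMPs (35.3% called), and 6 fell and 4 rose in GMPs (58.8%). Bambi, a pseudoreceptor that blocks signalling, fell to 0.544 of its WT level in CMPs and to 0.381 in GMPs (log2 -1.39 ± 0.13, adjusted p = 7.5e-05). The corepressor genes Ski and Tgif1 fell in GMPs (log2 -0.45 ± 0.06 and -0.62 ± 0.08). In MEPs Fkbp1a, whose product holds type I receptors inactive, rose 2.84-fold and the ubiquitin ligase gene Wwp1 rose 1.36-fold. Of the adaptors and partners, 2 rose and 1 fell in MEPs (33.3% called, close to the 29.4% of all genes). The latter was Foxh1, a SMAD partner, at 0.0472 of its WT level (1.19 to 3.12 CPM in WT and 0.0402 to 0.144 in KO). Foxh1 was near the floor in KO MEPs and passed the filter through the WT libraries, where it is higher. Its call is therefore not given as support.

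Known targets changed in both directions. Tgfbi, a secreted matrix protein named for its induction by TGF-beta, rose 3.98-fold in CMPs and 11.8-fold in GMPs (14.6 to 21.3 CPM in WT and 188 to 210 in KO, log2 3.57 ± 0.14), and 3.35-fold in MEPs from 0.199 to 0.338 CPM. Cdkn1a, the cell cycle inhibitor p21, rose 8.77-fold in MEPs (1.24 to 1.79 CPM in WT and 12.8 to 14.5 in KO, adjusted p = 2.5e-05, edgeR) and 2.49-fold in CMPs. The repressor gene Zeb2 fell in CMPs (log2 -0.52 ± 0.07) and GMPs (-0.82 ± 0.07), and Junb rose 1.42-fold in GMPs and fell to 0.449 of its WT level in MEPs. Among the E protein genes and their partners, whose products ID proteins bind or compete with, Tcf3 (E2A) rose 1.23-fold in CMPs and 1.14-fold in MEPs. Tcf4 (E2-2) fell to 0.561 of its WT level in GMPs (log2 -0.84 ± 0.10, adjusted p = 2.96e-04) and to 0.557 in MEPs, and Tal1 fell to 0.708 in GMPs.

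Marker genes of other cells moved with the genotype as well, and in sorted bulk RNA fewer cells of a type and less RNA per cell cannot be told apart. The counts below stand against 23.4% of all genes called in CMPs, 33.9% in GMPs and 29.4% in MEPs. In GMPs all 8 basophil, mast cell and eosinophil genes fell in KO (summed 4700 to 9730 TPM in WT and 1210 to 2160 in KO, none at 0). The 7 monocyte and macrophage genes summed to 1280 to 1530 TPM in WT GMPs and 892 to 1100 in KO GMPs, with 2 called higher (one of them Adgre1, 10.3-fold) and 4 lower, and the 9 neutrophil genes to 177 to 392 TPM in WT and 416 to 1350 in KO, with 4 called higher (among them Lcn2, 6.32-fold) and 3 lower (Retnlg, Ltf and Mmp9). Of 6 endothelial and stromal genes tested in GMPs, 4 fell and 1 rose, and all 10 summed to 62.4 to 69.0 TPM in WT and 44.5 to 48.0 in KO. Pecam1 made up 58.5 to 66.3 TPM of this in WT. Cldn5 was at 0 in all GMP libraries and Cdh5 at most at 0.0182 TPM, while Tek (0.964 to 1.4 TPM in WT and 0.167 to 0.675 in KO), Emcn (0.657 to 1.39 and 0.061 to 0.387) and Kdr (0.173 to 0.289 and 0.0521 to 0.104) were low and fell in KO together with Pecam1. Eng stood at 24.5 to 26.8 TPM in the same WT libraries. In CMPs 8 of 9 erythroid genes rose (summed 1120 to 1230 TPM in WT and 1790 to 2040 in KO) and 8 of 10 interferon response genes rose (181 to 264 and 313 to 397 TPM). There 6 of 9 neutrophil genes and 5 of 8 basophil, mast cell and eosinophil genes fell. Of 8 megakaryocyte and platelet genes in CMPs 5 fell and 2 rose, and of 7 monocyte and macrophage genes 3 fell and 1 rose. In MEPs 6 of 9 erythroid genes rose and 1 fell (6250 to 7220 and 4810 to 5070 TPM), and 8 of 10 interferon response genes rose (124 to 219 and 246 to 332 TPM). There 3 of 9 neutrophil genes (33.3%, close to the share of all genes) and 4 of 7 basophil, mast cell and eosinophil genes fell. Of 8 megakaryocyte and platelet genes in MEPs 4 rose, and of 7 monocyte and macrophage genes 3 rose and 1 fell. The part of these lists in the values of the members was not tested.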

How the data were processed

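RNA was sequenced from sorted LT-HSCs (SMART-Seq v4 libraries) and from CMPs, GMPs and MEPs (poly-A selected TruSeq libraries), as 22 libraries. The authors assigned the reads to Ensembl 84 transcripts (mm10) with kallisto 0.43.1 and their deposited tables give an estimated count, a TPM value and an effective length (a score in bases) for every transcript; TPM is scaled for length and to a fixed total per library. DESeq2 is named in the submitters' processing notes. Of the 115088 transcripts, 114200 (99.2%) were paired with genes of GENCODE vM21 (GRCm38). Estimated counts and TPM were summed per gene and the counts rounded. Members and lists were chosen with earlier results of these data known. All 10 members are named, as are Arid1a, up to 3 genes per list and comparison with the smallest adjusted p, and the 3 genes most correlated with each of Id1, Id2 and Eng. Id3 did not pass the filter over the precursor libraries and has no such genes. Hgs and Ahsp were not matched.

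KO and WT were compared within each population with edgeR 4.0.16 in R 4.3.3 (TMM, filterByExpr with a minimum count of 10, quasi-likelihood F-test, FDR 0.1). SE is the log2 fold change over the root of F. WT populations, and the KO effect in MEPs less that in CMPs, were fitted over 18 libraries with the mouse as a block. A number shared by library titles was read as 1 mouse. Deviations of libraries with the same number correlated with r between -0.004 and 0.352, which does not settle that reading. LT-HSCs, made with another kit, entered no comparison with other populations. CPM values use TMM over the 18 precursor libraries or the 4 LT-HSC libraries. DESeq2 1.42.0 and limma 3.58.1 on log2(TPM + 0.5) were alternatives. The labels do not say whether LT-HSC libraries came from separate mice, so those p-values measure the spread between samples only. The code was tested on simulated data, where 12.86% to 16.82% of the calls in the KO comparisons were false, above the set FDR of 0.1. A log2 change of 1 was recovered for 5% of changed genes in LT-HSCs and for 83% to 88% in the precursors. Promoters come from RefSeq (GRCm38.p6).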

Additional observations from a re-analysis of the deposited data

Results flagged for a closer look

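The KO effect in MEPs less that in CMPs was called for 2 members, against 13.1% of all genes tested. Of these, only Smad7 passed the filter within MEPs. For Smad7, an inhibitory SMAD, the KO effect was 1.22 lower in MEPs on the log2 scale, a value of -1.22 ± 0.18 (SE, edgeR adjusted p = 6.74e-04). It rose in KO CMPs and fell in KO MEPs, with no overlap between genotypes in either. The fall in MEPs alone was not called without mouse 300 or 304, with a length offset or with limma on log2 TPM (adjusted p = 0.11 to 0.185). This value lay between -1.30 and -1.15 when each mouse was left out in turn. For Id1 the difference was -1.55 ± 0.50 (edgeR adjusted p = 0.0734), with every KO CMP library above every WT one and 4 to 12 counts in each MEP library of either genotype. It lay between -1.79 and -1.06 when each mouse was left out, and was not called without mouse 300, 301, 308 or 309. Id1 did not pass the filter within MEPs and entered the fit through the populations where it is higher, so the value gives no support for a difference.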

How the results depend on the processing

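Most log2 values of the members kept their direction and their side of the threshold under the alternatives. The widest moves were in LT-HSCs, where the count of called pathway genes was 1 and became 4 without a filter on low counts, 5 with DESeq2, 0 with limma on log2 TPM and 3 with a replicate block, and lay between 1 and 12 when a replicate was left out (12 without WT replicate 2, 6 without WT replicate 1). Members called in LT-HSCs lay between 0 and 2 (2 without WT replicate 2). In MEPs the count of 2 members became 1 with a length offset and with limma, and 0 to 3 when a mouse was left out (0 without KO mouse 304). In CMPs 3 to 5 members were called (3 without KO mouse 304 or WT mouse 309), and for the KO effect in MEPs less that in CMPs 1 to 2. Pathway genes called lay between 17 and 24 in CMPs, 28 and 33 in GMPs and 19 and 28 in MEPs. WT mice left out gave 4 to 5 members called for GMP over CMP and 9 to 10 for both comparisons with MEPs. Values that changed sign were not called. In LT-HSCs Eng became 0.02 without a filter and 0.20 with a length offset, and leaving out 1 library gave -0.22 to 0.21 for Eng and -0.25 to 0.11 for Tgfbr1. In CMPs Tgfbr1 became 0.10 with limma, and leaving out 1 mouse gave -0.10 to 0.02 for Tgfbr1 and -0.04 to 0.29 for Tgfbr2. In MEPs Eng became 0.01 and Tgfbr2 0.03 with limma, Tgfbr2 became 0.00 with the replicate block, and leaving out 1 mouse gave -0.05 to 0.00 for Eng and -0.25 to 0.21 for Tgfbr2. Smad7 in WT GMPs over CMPs became 0.02 with median-of-ratios size factors and with DESeq2, and lay between -0.12 and 0.10 with 1 mouse left out. The KO effect in MEPs less that in CMPs became -0.02 for Skil with a length offset. With 1 mouse left out it lay between -0.07 and 0.09 for Skil, -0.11 and 0.04 for Tgfb1 and -0.19 and 0.27 for Id2. The cause was not tested. For the replicate block KO mice 301, 304 and 308 were matched with WT mice 300, 305 and 309 in the order of columns of a table of the study. LT-HSC libraries were matched by replicate number. The labels give no such matching, and the matched libraries come from different animals. Their deviations correlated with r between -0.027 and 0.387, and those of unmatched WT and KO libraries of a population between -0.358 and 0.188. Whether matched mice shared a batch was not tested, and the main comparisons did not use the matching. With the replicate block 6 members were called in CMPs (Id2 added, log2 -0.72, adjusted p = 0.0492) and 33 pathway genes. Without the mouse block the fit over 18 libraries called 5, 9, 9 and 2 members. With 2 libraries a group and a median SE of 0.765, LT-HSCs limit what can be called, and leaving out 1 of them leaves an arm of 1 library, whose spread is assumed to be that of the other arm.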
